A study of Mus musculus with 12 samples.

Results

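The transcriptome of islets from wild type mice on a standard diet was described from 3 of the 12 libraries of a mouse series that compares a Sirt3 knockout with wild type under 2 diets. The members were the 3 libraries titled as standard-diet wild type, called WT 1, WT 2 and WT 3 (STD WT 1 to 3 in the figures), and no contrast entered their choice. They came from male C57BL/6 mice aged 40 weeks that had eaten a diet with 6.2% fat throughout. The other 9 libraries were 3 from mice of the beta-cell-selective Sirt3 knockout on this diet, and 3 of each genotype after 36 weeks on a diet with 60% of calories from fat. They were used only for the spread between libraries. Islets had been freed from the pancreas with collagenase through the bile duct, enriched on a density gradient and caught on a strainer, so cells of neighbouring tissue that came through these steps are part of each library. The labels do not say whether the wild type mice carried a Cre transgene or floxed alleles, whether they were littermates of the knockouts, or whether 1 library is 1 animal. The spread is therefore that between 3 libraries, and part of it may be technical.

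Pancreatic islets are clusters of endocrine cells scattered through the exocrine pancreas. Beta cells secrete insulin, alpha cells glucagon, delta cells somatostatin, PP cells pancreatic polypeptide and the rare epsilon cells ghrelin. A beta cell senses glucose by taking it up and oxidising it: the rise in ATP closes ATP-sensitive potassium channels, the membrane depolarises, calcium enters through voltage-gated channels, and granules of processed insulin fuse with the membrane. Hormone receptors that act through cAMP raise this release, while adrenergic and somatostatin receptors lower it.

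Levels are FPKM, read counts scaled to the length of the gene and to the total count of the library, as the authors deposited them. Triplets of values are in the order WT 1, WT 2 and WT 3, and means carry the SD over these 3 libraries (n = 3). The libraries held 20579451, 16419024 and 18847302 counts, so counting error is small for all but rare mRNAs. Of 21918 protein-coding genes, 12503 had a mean of at least 1 FPKM, 6674 of at least 10, 683 of at least 100, 43 of at least 1000 and 5 of at least 10000. At least 1 FPKM in every library was reached by 11760 genes. Ranks are places among the 21918 protein-coding genes by mean FPKM, with 1 the highest. With 3 libraries and no second group, no test was made. An exact two-sided sign test over 3 libraries cannot go below a p of 0.25.

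The 3 libraries were not alike in the tissue around the endocrine cells, as their marker genes show further on. WT 1 was the library farthest from the others in 887 of the 1618 genes whose highest library was over 2-fold the lowest, and it was the high one in 840 of them. WT 3 was the farthest in 569, the low one in 481. WT 2 was the farthest in 162. Values also depend on the common scale: on log2(FPKM + 1) the median gene was 0.13 lower in WT 2 and 0.11 lower in WT 3 than in WT 1, and the difference shrank to -0.03 and 0.03 when the values were scaled to the counts outside insulin. Counts of which library was highest or lowest are as deposited, and for several lists they are also given scaled to the counts outside insulin. Such counts over all genes are not given here, so those of a list do not set it apart from other genes. The counts of the farthest library above are as deposited only. Results that rest on one library are given per library, and counts are repeated without it.

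The libraries matched their label. Both insulin genes, glucagon, amylin, chromogranin A, carboxypeptidase E and somatostatin took 7 of the 8 highest ranks among protein-coding genes, and the other was the acinar protease gene Ctrb1. Ins1 and Ins2 together made up 43.6%, 50.9% and 53.8% of the summed FPKM of protein-coding genes, a mean of 49.4% ± 5.28. The share was lowest in WT 1 and highest in WT 3. The 10 most abundant genes held 59.3% ± 4.91 of this sum. In bulk RNA, fewer cells of a type and less RNA per cell cannot be told apart.

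Ins2, the insulin gene that mice share with other mammals, was the most abundant mRNA (ENSMUSG00000000215, chromosome 7 from 142678656 to 142743381 on the minus strand, GENCODE M21 on GRCm38). It stood at 365873, 455884 and 490403 FPKM, a mean of 437387 ± 64293. Ins1, the second and rodent-specific insulin gene (ENSMUSG00000035804, chromosome 19 from 52264297 to 52265476 on the plus strand), stood at 63122, 72918 and 81109 FPKM. Both were lowest in WT 1 and highest in WT 3, so the ratio of Ins2 to Ins1 moved little, at 5.80, 6.25 and 6.05 by FPKM. By read counts the same ratio was 2.96 ± 0.112, because the deposited values divide Ins2 by a length of 499 bases and Ins1 by 1016. Which of these ratios reflects the molecules depends on which transcripts of Ins1 and of Ins2 are present, and this was not tested.

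Gcg, the proglucagon gene of alpha cells (ENSMUSG00000000394, chromosome 2 from 62474530 to 62483650 on the minus strand), followed with 34596, 38068 and 29409 FPKM. Iapp, which encodes the amylin peptide released with insulin (ENSMUSG00000041681, chromosome 6 from 142298423 to 142303961 on the plus strand), had 30821, 32663 and 35995 FPKM. The 2 ranges overlapped, and Gcg was above Iapp in 2 of 3 libraries, so their order was not settled. Gcg moved apart from the beta cell hormones: it was lowest in WT 3, where both insulin genes and Iapp were highest.

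Sst, somatostatin (ENSMUSG00000004366, chromosome 16 from 23889573 to 23890958 on the minus strand), was at 4735, 4208 and 4939.6 FPKM, a CV of 8.16%. Ppy, pancreatic polypeptide (ENSMUSG00000017316, chromosome 11 from 102099930 to 102101319 on the minus strand), was at 2758, 1708 and 4723 FPKM and had the widest spread of the abundant hormones, with a CV of 49.96%. Pyy, peptide YY, which lies on the same chromosome (ENSMUSG00000017311, chromosome 11 from 102106676 to 102107832 on the minus strand), was at 2185, 1814 and 2594 FPKM. WT 3 was the highest and WT 2 the lowest library for all 3 of these genes. Sst was above Ppy in every library although their ranges overlapped, and Ppy was above Pyy in 2 of 3. Ghrl, the ghrelin gene, lay far below at 0.768, 0.825 and 0.479 FPKM, from 17 counts in all, and rank 13036. Of the 7 pairs of neighbours in the hormone order, 5 kept their order in all 3 libraries and 4 had ranges that did not overlap.

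**Figure D1:**
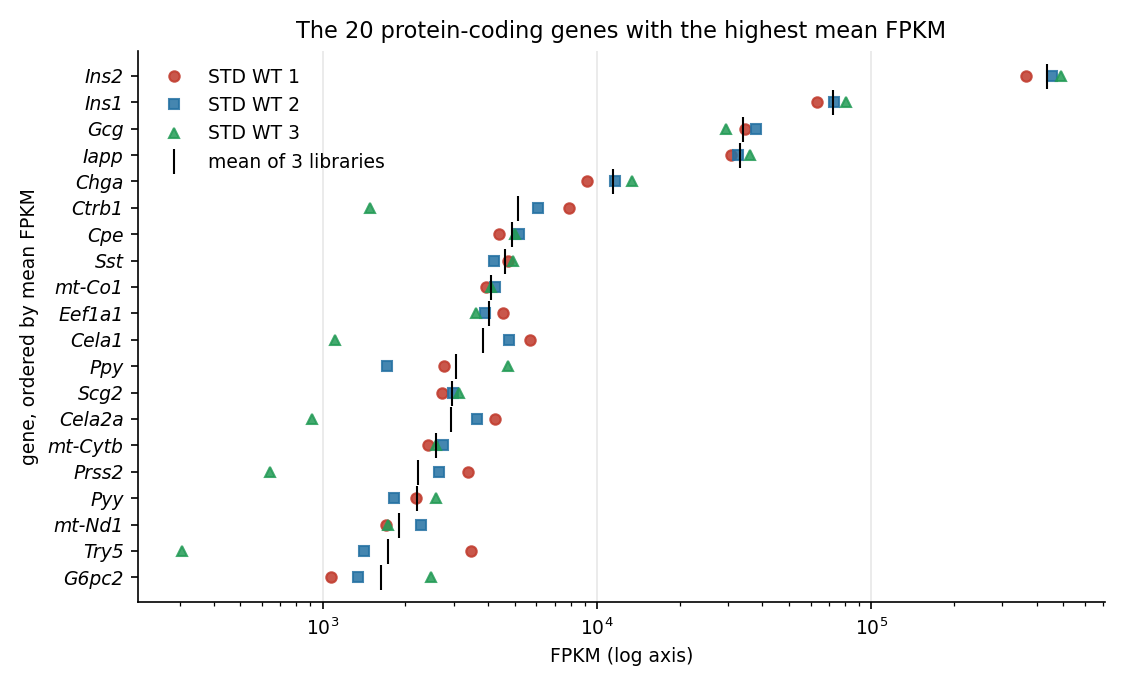
FPKM of the 20 most abundant protein-coding genes on a log axis, 1 symbol per library and a black tick for the mean of 3. The hormone genes Ins2, Ins1, Gcg and Iapp hold the top, and the acinar genes Ctrb1, Cela1, Cela2a, Prss2 and Try5 are the ones whose WT 3 point lies far to the left.

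The bases just before the start of 4 of the hormone genes are printed because they are among the most abundant mRNAs of the beta, alpha and delta cells. RefSeq's promoter table held these 4 of the 5 most abundant hormone genes, and Ins2 was the other. Each run is the 150 bases before the RefSeq start on GRCm38.p6, written 5′ to 3′ on the gene's strand. Capitals mark 4 short motifs searched on both strands: TAAT, the core bound by homeodomain factors such as Pdx1, Isl1 and Pax6; CATCTG, the insulin-type E-box of Neurod1; TATAAA, the TATA box; and TGACGTCA, the cAMP response element. Where motifs overlap, the capitals run together. For Sst, the GENCODE gene reaches to 23890958, so its own start lies inside the run.
Ins1 (chr19:52264147-52264296, plus strand): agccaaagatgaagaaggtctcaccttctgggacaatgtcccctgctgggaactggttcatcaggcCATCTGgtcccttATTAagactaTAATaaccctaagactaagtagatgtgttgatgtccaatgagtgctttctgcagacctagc
Gcg (chr2:62483654-62483803, minus strand): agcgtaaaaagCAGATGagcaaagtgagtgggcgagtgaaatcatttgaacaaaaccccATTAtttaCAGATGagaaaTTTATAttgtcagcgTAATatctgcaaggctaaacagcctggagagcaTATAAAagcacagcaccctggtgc
Iapp (chr6:142298275-142298424, plus strand): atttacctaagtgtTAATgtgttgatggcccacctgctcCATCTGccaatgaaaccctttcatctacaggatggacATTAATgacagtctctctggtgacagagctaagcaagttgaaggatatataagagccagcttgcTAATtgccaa
Sst (chr16:23890845-23890994, minus strand): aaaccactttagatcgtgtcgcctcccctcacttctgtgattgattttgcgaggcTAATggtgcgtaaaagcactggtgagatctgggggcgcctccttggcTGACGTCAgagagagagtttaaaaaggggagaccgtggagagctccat

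Over the 250 bases before the start, the TAAT core was found in all 4 genes, with 3 matches in Ins1, 2 in Gcg, 5 in Iapp and 1 in Sst. It is common: 54.9% of the 32851 such windows of RefSeq genes hold it. CATCTG was found in Ins1, Gcg and Iapp and in 14.4% of all windows. The full cAMP response element was found in Sst alone of these 4, from 48 to 41 bases before the start, and in 1.55% of all windows. TATAAA was found in Gcg, from 24 to 19 bases before the start on the gene's strand and once more on the other strand, and in 12.4% of all windows. A match is a run of letters and says nothing of binding. Positions count from the RefSeq start, and whether islets use that start was not tested. A motif not found in a window, such as TATAAA for Ins1, may lie outside it. Neurod1, a factor that binds the E-box, was present at 29.5, 37.2 and 37.5 FPKM.

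Among transcription factors of the endocrine lineage, 42 of 44 reached 1 FPKM and 31 reached 10, with a median of 22.3 FPKM. Nr4a1, an orphan nuclear receptor and early response gene, was the highest at 230.0, 139 and 299 FPKM. Mafa, an activator of insulin transcription in mature beta cells, came next at 195, 156 and 160.1 FPKM, a mean of 170.4 ± 21.6. Pax6, needed by all islet endocrine cells, had 116, 146 and 159.5 FPKM. Mafa was above Pax6 in every library although their ranges overlapped, and Nr4a1 was above Mafa in 2 of 3.

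Nkx6-1, which holds the beta cell programme, stood at 102, 119 and 169 FPKM and Nkx2-2, a broader endocrine factor, at 86.8, 105 and 103. Isl1 had 63.97, 75.8 and 86.2 FPKM, and Pdx1, the homeodomain factor of pancreas formation and of insulin transcription, had 59.8, 74.8 and 77.5 FPKM. All 4 were lowest in WT 1, as the insulin genes were, but the list as a whole was not. Of its 42 members at 1 FPKM, 15 were lowest in WT 1 and 17, among them Mafa, were highest there. Scaled to the counts outside insulin, 21 were lowest in WT 1 and 12 highest. Onecut1 is counted among the 42 but reached a mean of 1 FPKM through WT 1 alone, at 4.44, 0.471 and 0.103 FPKM. Vdr, the vitamin D receptor, had 88.96, 119 and 168 FPKM and Peg3, an imprinted zinc finger gene, 121, 141 and 145. Esr1 and Foxa1 were the 2 members under 1 FPKM, at 0.295 and 0.162.

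The factors of the minor endocrine cells had a list median of 18.4 FPKM, against 22.3 for the endocrine lineage list above. Meis2 led them with 53.2, 54.9 and 50.9 FPKM, a CV of 3.79%, and Etv1 had 30.5 FPKM. Meis2 and Etv1 are on both lists. Irx1 and Irx2, of alpha cells, had means of 18.7 and 18.2 FPKM. Hhex, a delta cell factor, spread the most of these, with 41.7, 19.9 and 10.2 FPKM. It was highest in WT 1 and lowest in WT 3, while Sst was highest in WT 3.

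Progenitor factors were mostly silent: 6 of 14 reached 1 FPKM, and the list's median was 0.690 FPKM. Pax4 and Pou5f1 were listed at 0 in every library, and Nanog had 1 count in all. Neurog3, which starts endocrine differentiation in the embryo, was at 5.52, 5.45 and 3.61 FPKM. Hes1, a Notch target, had 64.2, 23.9 and 17.9 FPKM and Sox9, a factor of ductal and progenitor cells, 15.2, 4.09 and 0.565. All 6 members at 1 FPKM were highest in WT 1, of which Onecut2 reached that mean through WT 1 alone, and 5 of 6 when scaled to the counts outside insulin. Without WT 1, 1 of the 6 still differed over 2-fold, against 5 with it. Over all 12503 genes, 12.9% differed over 2-fold with all libraries. The ductal marker list was highest in the same library (1761, 626 and 546 FPKM summed over 14 genes), and its part in these values was not tested.

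Beta cells keep a set of widely expressed genes low, often called disallowed genes, and not all of those listed here are metabolic. All 21 listed here reached a mean of 1 FPKM, with a median of 10.5 FPKM. Ldha, lactate dehydrogenase A, had 72.2, 43.2 and 30.6 FPKM, Mgst1, a microsomal glutathione transferase, 53.9, 17.4 and 4.87, and Cat, catalase, 37.3, 19.5 and 6.32. Slc16a1, the monocarboxylate transporter, had 1.49, 0.867 and 0.875 FPKM, and Hk2, a hexokinase of high affinity, 1.51, 0.751 and 0.993. Rest had 2.05, 0.980 and 0.670 FPKM. Slc16a1, Hk2 and Rest reached a mean of 1 FPKM through WT 1 alone. The list was highest in WT 1 for 19 of 21 genes and lowest in WT 3 for 16, and 15 of the 21 differed over 2-fold, against 12.9% of all 12503 genes. Without WT 1, 4 of 21 did, and without WT 3, 8 did. Scaled to the counts outside insulin, 18 were highest in WT 1. The ductal and acinar marker lists were also highest in WT 1 and lowest in WT 3, and their part in these levels was not tested.

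**Figure D2:**
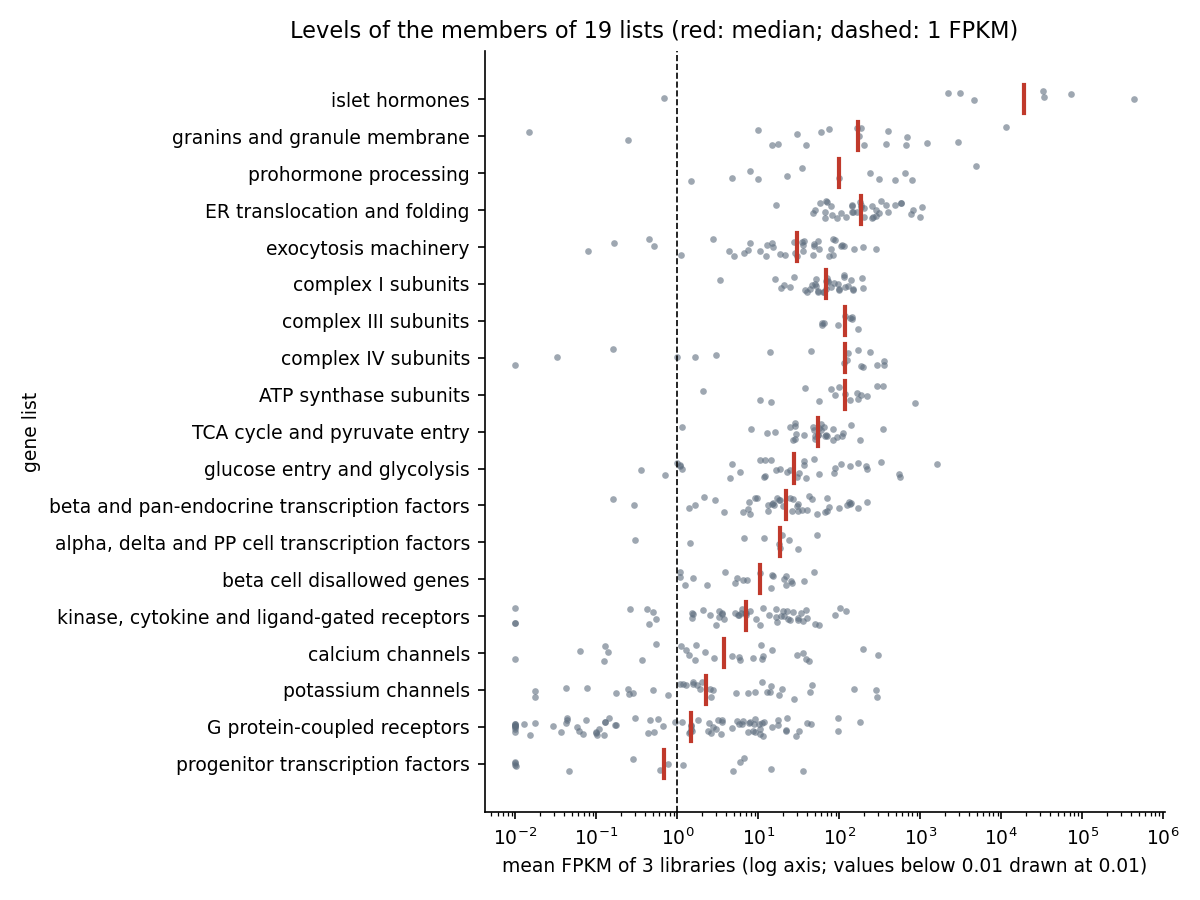
Mean FPKM of each member of 19 gene lists on a log axis, 1 point per gene, with the list's median as a red bar and a dashed line at 1 FPKM. Hormones, granule proteins, folding enzymes and respiratory chain subunits lie to the right, and channels, receptors and progenitor factors straddle the dashed line.

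Genes of the secretory granule were among the most abundant, with a spread near that of other genes at their level. Chga, chromogranin A, a core protein of dense granules, had 9167, 11634 and 13406 FPKM and rank 5. Scg2, secretogranin 2, had 2726, 2975 and 3145 FPKM, Scg3, a sorting receptor for granins, 951, 1222 and 1479, and Chgb, chromogranin B, 564, 620.3 and 862. Each of these 4 granins was lowest in WT 1 and highest in WT 3. Slc30a8, the zinc transporter that loads insulin granules, had 341, 425 and 430.4 FPKM. It stood apart from its families: of 24 zinc transporter genes the next, Slc39a9, had a mean of 39.8 FPKM. Ptprn, the granule membrane protein IA-2, had 345, 369 and 415 FPKM. Of the 18 granin and granule membrane genes at 1 FPKM, none differed over 2-fold, against 5.94% of all genes between 100 and 1000 FPKM. Their median CV was 12.3%, against 10.1% for all genes at that level. Of the 18, 16 were lowest in WT 1, and 17 when scaled to the counts outside insulin.

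The enzymes that cut and trim prohormones were all present, 13 of 13 at 1 FPKM. Cpe, which removes the basic residues left by the convertases, had 4388, 5197 and 5034 FPKM and rank 7. Pcsk2, the convertase that beta and alpha cells share, had 443, 499 and 521 FPKM, and Pcsk1, the convertase of beta cells, 212, 271 and 242. Pcsk2 was 2.03 ± 0.162 times Pcsk1 by FPKM, and above it in every library. Scg5, the chaperone of Pcsk2, had 735, 850.0 and 794 FPKM, and Pcsk1n, an inhibitor of Pcsk1, 541, 576 and 841. Pam, which amidates peptides such as amylin, varied least of these 6, with 309.9, 314 and 296 FPKM.

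In the endoplasmic reticulum, 39 of 39 translocation and folding genes exceeded 10 FPKM and 28 exceeded 100. Hspa5, the chaperone BiP, had 1107, 981 and 1069 FPKM and Pdia3, a disulfide isomerase, 1019, 1018 and 979, a CV of 2.27%. Ero1lb, the oxidase that renews these isomerases in the pancreas, had 581, 593 and 552 FPKM. The regulators of the unfolded protein response were lower, with a median of 50.1 FPKM against 187 for the folding genes. Xbp1 had 244, 233 and 261 FPKM. Atf4, the factor of the integrated stress response, had 164, 180.0 and 256 FPKM and Herpud1, of protein degradation at the reticulum, 172, 153 and 256, both highest in WT 3. Atf3, a stress-induced factor, ranged over 292, 79.1 and 177 FPKM, highest in WT 1.

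Of 41 exocytosis genes, 37 reached 1 FPKM and 6 exceeded 100. Syt13, a synaptotagmin that does not bind calcium, led with 258, 294 and 308 FPKM, and Syt7, a calcium sensor of insulin release, had 79.8, 81.02 and 87.1. In the order of the synaptotagmin family, 8 of 11 neighbouring pairs had ranges that did not overlap. Napa, an adaptor that recycles SNARE complexes, had 197, 190.3 and 206 FPKM, Vamp2, the SNARE of the granule membrane, 133, 148 and 174, and Rab27a, which tethers granules, 106, 119 and 118. Rims1, better known from synapses, was at a mean of 0.0777 FPKM. Of the 37 members at 1 FPKM, none differed over 2-fold between libraries, against 5.09% of all genes between 10 and 100 FPKM. Their median CV of 11.4% was near the 10.9% of all genes at that level.

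Other secreted peptides were few: 15 of 30 reached 1 FPKM. Ucn3, the urocortin that mature beta cells release to act on delta cells, had 257, 292 and 341 FPKM. Vegfa, which maintains islet capillaries, had 186, 194 and 266 FPKM, and Nucb2, the precursor of nesfatin, 202, 218 and 189. Pdyn, prodynorphin, had 132, 116 and 55.7 FPKM and was lowest in WT 3, where Ucn3 and Vegfa were highest. Gast, Cck and Tac1 had means of 0.579, 0.568 and 0.506 FPKM, and Gip and Crh were listed at 0.

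Among potassium channels, the subunits of the ATP-sensitive channel and TALK-1 stood above the rest. Abcc8, its sulfonylurea receptor subunit, had 294, 271 and 323 FPKM and Kcnj11, its pore Kir6.2, 126, 144 and 186. The pore was below the receptor subunit in every library, with a ratio of Abcc8 to Kcnj11 of 1.99 ± 0.307 by FPKM and 3.57 ± 0.552 by counts, so its size depends on the lengths used. Kcnk16, the two-pore channel TALK-1, was close to Abcc8 at 245, 286 and 321 FPKM, with ranges that overlapped. A gap of 3.31-fold separated Kcnj11 from the next, Kcnmb2, at 39.6, 47.5 and 50.3 FPKM, with Kcnh2, a channel of the ERG family, close to it at 40.97, 43.7 and 45.02. Of the 94 genes of the potassium channel family, 43 reached 1 FPKM and 2 exceeded 100.

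A few channel genes were high in 1 library. Kcnq1, a voltage-gated channel of epithelia, had 42.9, 6.81 and 4.08 FPKM, and Kcne3, its partner subunit in such cells, 41.2, 1.79 and 1.84. The chloride channel gene Ano1, also epithelial, had 28.4, 5.27 and 5.37 FPKM. For each, WT 1 was at least 5 times both others. The summed ductal list was highest in the same library, and its part in these 3 genes was not tested.

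On the calcium list, the pumps of the endoplasmic reticulum were the highest genes. Atp2a2, the pump SERCA2, had 304, 304 and 306 FPKM, a CV of 0.334%, one of the 10 narrowest spreads of all genes with a mean of at least 10 FPKM. Atp2a3, the pump SERCA3, had 205, 185 and 193 FPKM. Of the pore subunits of voltage-gated calcium channels, Cacna1a, of P/Q type, had 12.1, 10.3 and 12.3 FPKM, Cacna1d, of L type, 11.96, 10.96 and 10.7, and Cacna1c, also of L type, 5.75, 6.83 and 5.40. The first 2 overlapped in range and both lay above the third in every library. Their accessory subunits were higher, with 35.6 ± 2.99 FPKM for Cacna2d1 and 29.8 ± 3.98 for Cacnb3. Cacna1g and Cacna1e, of T and R type, had means of 0.543 and 0.366 FPKM, and Cacna1s was listed at 0. The 3 ryanodine receptor genes lay under 1 FPKM, while Itpr1, the inositol trisphosphate receptor, had 40.02, 44.4 and 32.8.

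Trpm5, a cation channel opened by internal calcium, had 61.7, 73.6 and 80.3 FPKM, and the next of 22 TRP genes, Trpm7, 15.7, 13.5 and 9.99. Gjd2, connexin 36, which couples beta cells electrically, had 64.96, 82.00 and 99.00 FPKM. Of the 14 voltage-gated sodium channel genes, 5 reached 1 FPKM. Scn9a, Scn8a and Scn3a, the pore genes among them, had means of 4.36, 3.96 and 3.83 FPKM, with ranges that overlapped.

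Of 85 listed G protein-coupled receptors, 48 reached 1 FPKM, 19 reached 10 and 1 exceeded 100. That one was Adgrg1, the adhesion receptor GPR56, with 188, 165 and 183 FPKM. Glp1r, the receptor of the incretin GLP-1, had 77.6, 113 and 96.2 FPKM and Sstr3, a somatostatin receptor, 82.2, 85.01 and 118. These 2 ranges overlapped, and Adgrg1 lay above both in every library.

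The next receptors were Vipr1, for the peptide VIP, at 36.96, 48.8 and 46.8 FPKM, and Ffar1, the receptor of long-chain fatty acids, at 38.9, 44.3 and 35.8. Adra2a, through which adrenaline lowers insulin release, had 25.7, 36.3 and 34.7 FPKM, and Ffar2, a receptor of short-chain fatty acids, 29.4, 32.8 and 25.3. Gipr, the receptor of the incretin GIP, was named after its values were seen: it had 15.1, 16.98 and 34.02 FPKM and was highest in WT 3. Among the 5 somatostatin receptors, Sstr3 was followed by Sstr2 with 4.66, 2.36 and 3.54 FPKM, and Sstr1, Sstr4 and Sstr5 were under 1 FPKM. Htr2c and Mtnr1b, for serotonin and melatonin, were listed at 0.

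Kinase, cytokine and ligand-gated receptors reached 1 FPKM in 45 of 53 cases. Ghr, the growth hormone receptor, had 103, 134 and 128 FPKM, Il1r1, the interleukin 1 receptor, 112, 109 and 87.97, and Prlr, the prolactin receptor, 76.8, 103 and 82.7. Insrr, a relative of the insulin receptor, had 47.3, 46.5 and 73.05 FPKM. Irs1, a docking protein of insulin signalling on the same list, had a mean of 0.537 FPKM. Downstream, the inhibitory subunits Gnai2 and Gnao1 were the highest G protein alpha genes, with 435, 413 and 471 and 166, 175 and 202 FPKM. Gnas, the stimulatory subunit that carries the signal of Glp1r, was listed at 35.4, 35.1 and 35.9 FPKM. Its locus holds overlapping transcripts, and 18.6% of its 50-base windows also stand in another annotated gene. Its level is therefore uncertain.

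In glucose metabolism, G6pc2, the islet glucose-6-phosphatase that opposes glucokinase, was the highest gene, with 1067, 1345 and 2480.4 FPKM and rank 20. WT 3 was 1.84 times WT 2 and 2.32 times WT 1. Slc2a2, the glucose transporter GLUT2, had 156, 264 and 249 FPKM, lowest in WT 1. Slc2a5, which carries fructose, had 141, 167 and 205 FPKM, while Slc2a1, the transporter GLUT1, had 15.9, 9.14 and 10.01. The range of Slc2a1 lay below those of both others. Gapdh, of glycolysis, varied little at 573, 563 and 572 FPKM. In lipid metabolism, Acly, which makes cytosolic acetyl-CoA, had 416, 372 and 354 FPKM and Hadh, a dehydrogenase of fatty acid oxidation that is high in beta cells, 176, 219 and 255. Cpt1b, the muscle carnitine transferase, was listed at 0.

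Subunits of the respiratory chain were abundant. The medians were 68.4 FPKM over 36 subunits of complex I, 73.7 over 4 of complex II, 116 over 9 of complex III, 119 over 18 of complex IV and 118 over 17 of ATP synthase. Of the 80 of these at 1 FPKM, 1 differed over 2-fold, against 12.9% of all 12503 genes and 5.94% of those between 100 and 1000 FPKM. Their median CVs, from 7.28% for complex II to 12.3% for complex III, were near those of all genes at such levels. Atp5b, the catalytic beta subunit, led with 915, 881 and 755 FPKM. Sdha, which belongs to complex II and to the citric acid cycle, had 347, 326 and 359 FPKM and lay above its 3 partners in every library, of which the next, Sdhd, had 94.9, 82.4 and 72.2. Cox6a1, of complex IV, had 390.0, 319 and 367 FPKM. WT 1 was the highest library for 63 of the 80, but for 39 of the 80 when scaled to the counts outside insulin and for 35 when scaled by median ratios. For the cytosolic ribosomal proteins, WT 1 was highest in 77 of 78 as deposited and in 68 when scaled to the counts outside insulin.

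The citric acid cycle and pyruvate entry genes all reached 1 FPKM, 32 of 32. Mdh2, malate dehydrogenase, had 145, 132 and 144 FPKM. Ucp2, an inner membrane carrier that dissipates the proton gradient, had 230.1, 197 and 259.6 FPKM, and Ucp1, its counterpart of brown fat, was listed at 0. Of the antioxidant genes, Gpx3, a secreted glutathione peroxidase, had 647, 995 and 642 FPKM and Txnip, an inhibitor of thioredoxin induced by glucose, a mean of 389 ± 36.6. Nnt, the mitochondrial transhydrogenase that is disrupted in some C57BL/6 substrains, was named after its values were seen. It had 10, 2 and 7 counts, 0.173, 0.0435 and 0.133 FPKM. The labels do not name the substrain.

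The 13 mRNAs encoded by mitochondrial DNA spanned over 4 orders of magnitude. As background, these mRNAs are cut from long shared transcripts. mt-Co1 had 3947, 4254 and 4092 FPKM, rank 9, mt-Cytb 2412, 2731 and 2592 and mt-Nd1 1698, 2274 and 1734. At the other end, mt-Co2 was listed at 5.11, 7.66 and 6.83 FPKM, mt-Co3 at 3.97, 6.06 and 2.50, mt-Atp6 at 4.64, 6.35 and 6.54 and mt-Nd4l at 0, 0 and 0.179. These 4 and mt-Nd3, at 62.3, 62.3 and 62.1 FPKM, were the members with the largest shares of sequence in other genes. In mt-Co2, 100% of the 50-base windows also occur in another annotated gene, in mt-Co3 99.9%, in mt-Atp6 99.5%, in mt-Nd4l 98.8% and in mt-Nd3 97.99%. In mt-Cytb, mt-Nd1 and mt-Nd6 the share was 0. mt-Atp8, at 5.95, 7.46 and 5.46 FPKM, was low with a share of 0, and mt-Co1 was the highest with 51.1%. How reads with several matching places were counted is not given in the sources used here, so the levels of the low members are uncertain and the part of shared sequence in them was not tested. WT 2 was the highest library for 11 of the 12 members at 1 FPKM, and for 10 when scaled to the counts outside insulin. Shared sequence makes other levels uncertain too, and it was found at low and at high levels. Of the trypsinogen genes, Try4 shares 65.6% of its windows at a mean of 1193 FPKM, Try5 47.6% at 1730.1 and Prss1 54.9% with 9 counts in all. Of the ribosomal protein genes, Rpl36 shares 81.1% at 579 FPKM and Rps3a1 71.01% at 700.2, while Rpl24 shares 51.8% with 18 counts in all.

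**Figure D3:**
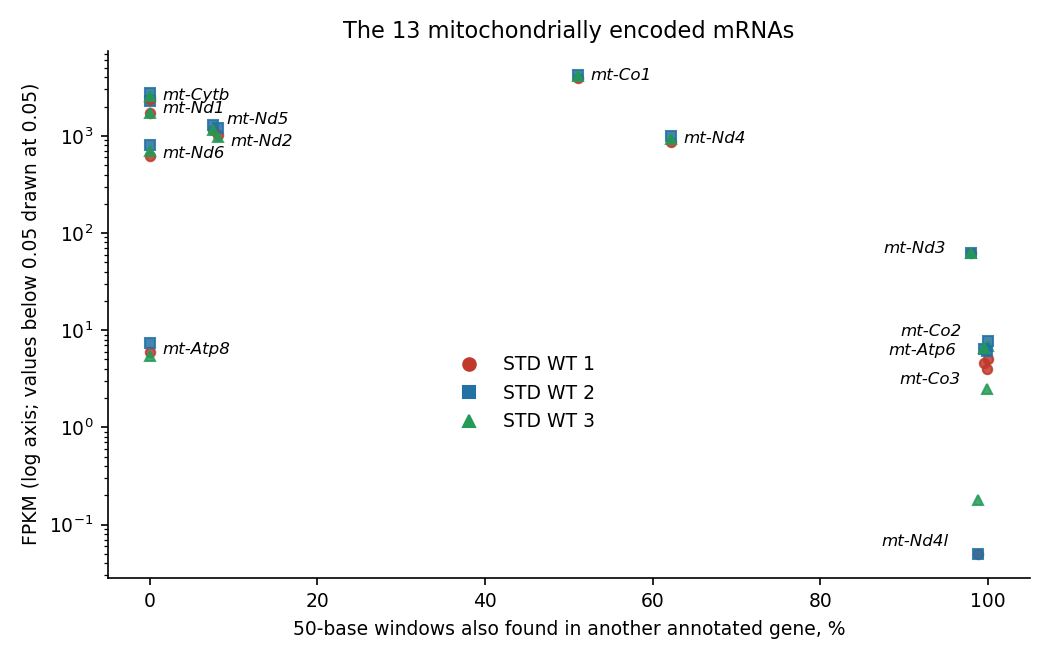
FPKM of the 13 mitochondrially encoded mRNAs on a log axis, 1 symbol per library, against the percentage of their 50-base windows that also occur in another annotated gene. The 5 genes over 90% are at or below 62.3 FPKM, the 7 genes over 100 FPKM are at or below 62.2%, and mt-Atp8 is low at 0%.

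Early response genes, which are switched on within minutes of a stimulus, were abundant. Fos, a subunit of the factor AP-1, was at 1178, 849 and 1138 FPKM, rank 40, Junb at 801, 387 and 577 and Egr1 at 288, 179.6 and 211, all 3 lowest in WT 2. Of 23 early response and heat shock genes, 18 were lowest in WT 2, and 16 when scaled to the counts outside insulin. Of the 23, 11 differed over 2-fold, against 12.9% of all genes. Without WT 2, 2 of the 23 did, without WT 1 6 and without WT 3 8. The time between dissection and lysis is not in the labels, and its part in these levels was not tested. Tph1, an enzyme of serotonin synthesis that is induced in islets by lactogens, had 0.970, 0.461 and 28.6 FPKM, under 1 FPKM in WT 1 and WT 2 and high in WT 3. Ddc, the next enzyme of that path, was steady at 323, 403 and 308 FPKM. Socs2 and Cish, targets of lactogen and growth hormone signalling, were also highest in WT 3, at 11.6, 9.19 and 20.4 and 3.95, 1.596 and 10.5 FPKM. Of the 14 lactogen and serotonin genes at 1 FPKM, 8 were highest in WT 3, 5 in WT 2 and 1 in WT 1. Scaled to the counts outside insulin, 8 were highest in WT 3 and 6 in WT 2. The mean of Tph1 thus rests on WT 3.

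Genes of other pancreatic cells were abundant and differed between libraries. Of 30 acinar markers, 28 reached 1 FPKM and 21 exceeded 100. Ctrb1, chymotrypsinogen B, had 7888, 6088 and 1481 FPKM, Cela1, an elastase, 5669, 4752 and 1107, and Pnlip, pancreatic lipase, 2126, 2214 and 512. All 28 were lowest in WT 3 and all 28 differed over 2-fold, against 12.9% of the 12503 genes. Without WT 3, 2 of the 28 did. The list summed to 43598, 36797 and 8464 FPKM, a ratio of 5.15 between the highest and the lowest library.

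Ductal markers summed to 1761, 626 and 546 FPKM, highest in WT 1. Spp1, osteopontin, had 538, 158 and 32.7 FPKM and Krt19, the duct keratin, 182, 16.1 and 17.02, while Krt7, another keratin, did not follow at 101, 88.4 and 103. Of the 13 at 1 FPKM, 10 differed over 2-fold with all libraries, against 12.9% of all 12503 genes. Without WT 1, 4 of the 13 did, and the number over all genes without WT 1, also lower, is given further on. WT 1 also led among the genes that spread the most. Of the 15 genes with the widest ratio between libraries at a mean of at least 5 FPKM, 10 were highest in WT 1. They included Lgals4, a galectin of gut epithelium, at 103, 0.623 and 10.9 FPKM, Spink4 at 84.6, 0.589 and 2.57 and Tff3, a trefoil peptide of mucus, at 44.7, 0.494 and 2.15. A list of 16 mucous and intestinal epithelium genes, put together after these were seen and including them, summed to 672, 189 and 154 FPKM. Of its 12 members at 1 FPKM, 11 were highest in WT 1. The high sum and count in WT 1 thus follow in part from how the list was chosen. Vil1 on this list was highest in WT 3, at 68.8, 63.2 and 91.2 FPKM, and Muc2, a mucin gene, had 1 count in all.

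WT 2 held mRNAs known from kidney. Umod, uromodulin of the loop of Henle, had 1.01, 30.3 and 0.723 FPKM, Slc34a1, the phosphate transporter of the proximal tubule, 0.604, 21.9 and 0.545, and Aqp2, the water channel of the collecting duct, 0.514, 15.8 and 0.187. A list of 17 kidney genes, put together after these were seen and including them, summed to 10.9, 257 and 7.64 FPKM. Its high sum in WT 2 thus follows in part from how it was chosen. Nphs1, of the glomerulus, stayed under 1 FPKM in every library. WT 2 also had single antibody gene segments at high level: Igkv8-24 was at 10.3, 1519 and 2.33 FPKM and Ighv2-3 at 9.38, 1109.6 and 4.13.

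Lymphocyte markers summed to 2926, 3818 and 1155 FPKM, of which most was the antibody genes Igkc, at 1445, 1842 and 509 FPKM, and Ighm, at 593, 1439 and 194. Apart from these 2, the other 14 were highest in WT 1. A list of 9 lymph node genes, put together after values were seen, did not follow: it summed to 97.5, 63.96 and 132 FPKM, and 5 of 9 were highest in WT 3, among them Ccl21a, a chemokine of lymphatic tissue, at 25.4, 28.1 and 71.3 FPKM. Endothelial markers went the other way, with 13 of 13 lowest in WT 1. Plvap, of fenestrated capillaries, had 56.9, 80.98 and 106 FPKM and Pecam1 21.4, 28.5 and 30.9. Macrophage markers had sums close to each other, of 248, 228 and 246 FPKM. Even so, 3 of the 14 at 1 FPKM differed over 2-fold, against 12.9% of all genes. C1qa, a complement gene of macrophages, was at 62.8, 76.2 and 78.3 FPKM. Schwann cell and adipocyte markers were low: 3 of 8 and 2 of 8 reached 1 FPKM, and Sox10, Gfap, Lep and Plin1 were all under 1.

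**Figure D4:**
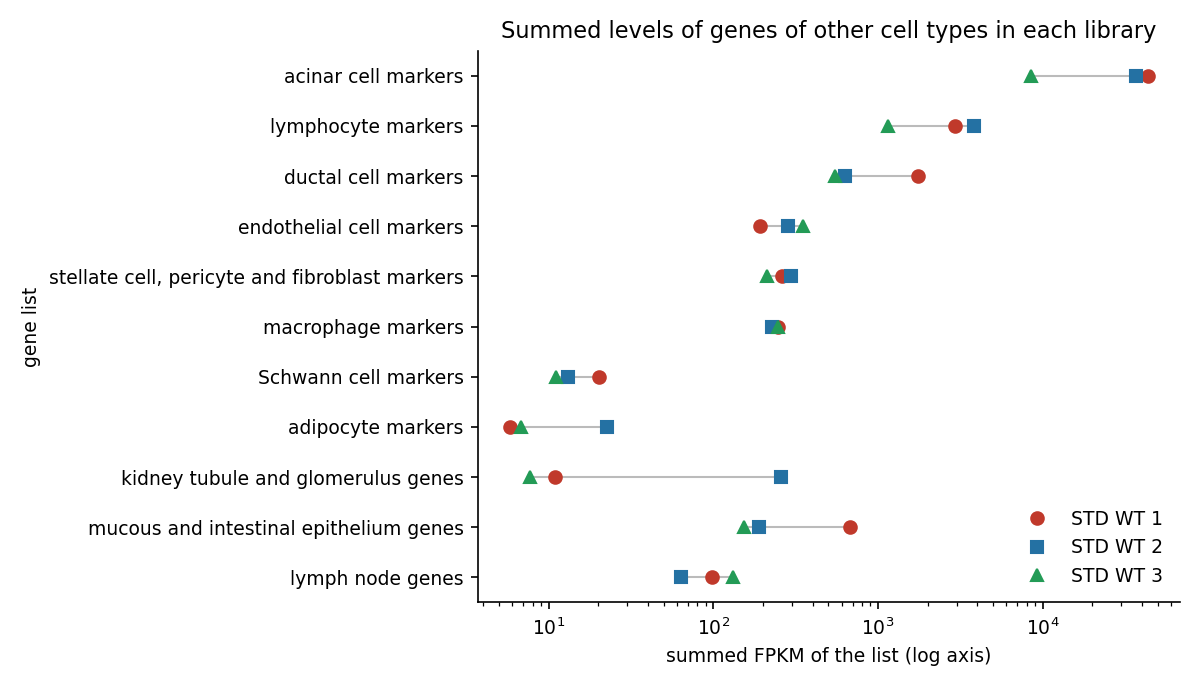
Summed FPKM of 11 lists of genes of other cell types on a log axis, 1 symbol per library joined by a grey line. Acinar markers are lowest in WT 3, ductal and mucous genes highest in WT 1 and kidney genes highest in WT 2. The macrophage sums lie within 1.09-fold. The mucous, kidney and lymph node lists were put together after values were seen.

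Across all 12503 genes at 1 FPKM, the median CV between the 3 libraries was 13.5%, and 1618 genes (12.9%) differed over 2-fold. Between 10 and 100 FPKM the median CV was 10.9% against 3.67% from counting, and between 100 and 1000 FPKM it was 10.1% against 1.54%. For the 43 genes over 1000 FPKM it was 14.7% against 0.559%, and 14 of these genes, 32.6%, differed over 2-fold. Of these 14, 12 are on the acinar marker list, and the others are Ppy and G6pc2. Pairs of libraries correlated at r of 0.951 to 0.976 on log2(FPKM + 1), WT 1 with WT 3 lowest, which describes 12503 genes that share libraries. Without WT 1 the number of genes over 2-fold was 560, without WT 3 it was 935 and without WT 2 it was 1416.

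The spread was of the same order in the other groups of the study. The median CV was 13.97% in the knockout on standard diet, 12.96% in the wild type on high fat diet and 22.8% in the knockout on high fat diet, and 10.0%, 14.7% and 18.7% of genes differed over 2-fold. Lists differed in spread within the wild type libraries. The median CV was 7.64% for folding genes of the reticulum, 7.78% for the citric acid cycle and 8.26% for prohormone processing, against 43.8% for disallowed genes, 63.2% for acinar and 72.6% for ductal markers. The narrowest genes at 10 FPKM or more were Anks3, an ankyrin repeat gene, at 22.4 FPKM in each library, then Kdf1, mt-Nd3, Gpkow and Atp2a2, each with a CV under 0.4%. With 3 libraries, CVs this low describe these libraries only.

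**Figure D5:**
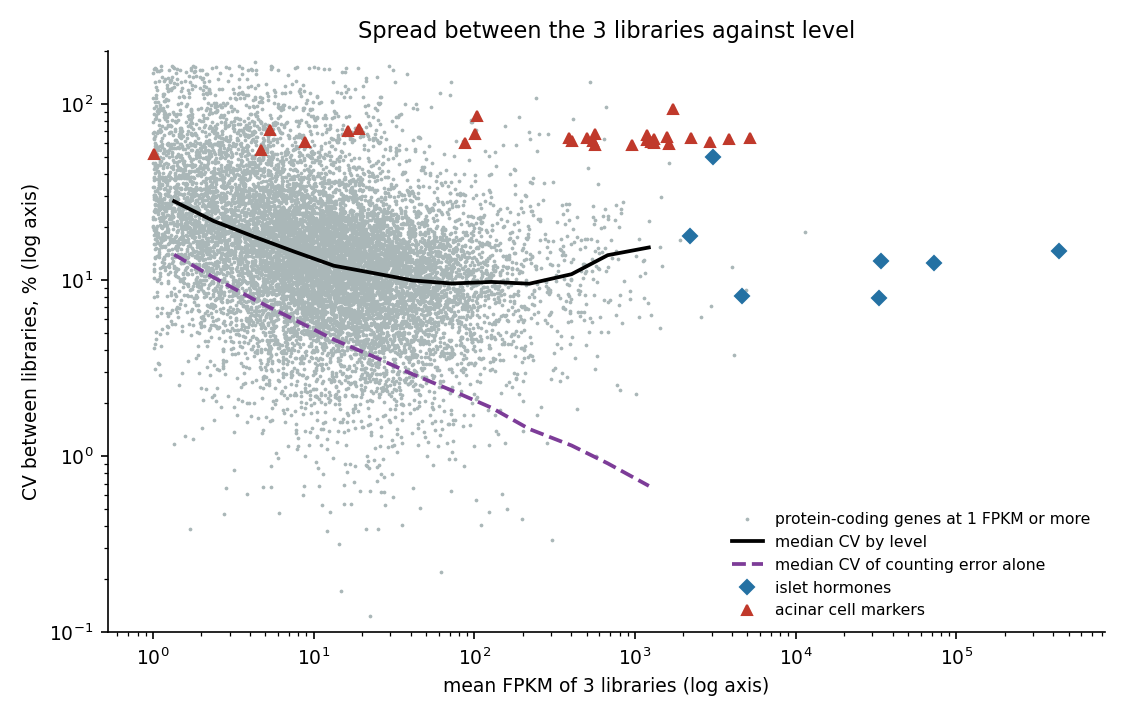
CV between the 3 libraries against mean FPKM, both on log axes, for the 12503 protein-coding genes at 1 FPKM or more, with the median by level (black) and the median that counting error alone gives (dashed). Hormones, in blue, lie beyond the right end of the black line, at 7.91% to 17.7% except Ppy at 49.96%. The acinar markers, in red, lie between 51.9% and 93.1% at every level.

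All levels between genes depend on the length each gene was divided by. The length in use was within 2% of the mean length of a gene's GENCODE M21 transcripts for 95.3% of the 16598 genes with more than 1 transcript. It was a median 0.431 of the length of the joined exons. For Abcc8 it was 1965 bases against 8090, for Ins2 499 against 1312, and for Pdx1 2158 against 2158 and Mafa 2739 against 2739. With joined exons Mafa would move from rank 378 to 157 and Pdx1 from 1060 to 401, while Abcc8 would move from 208 to 394. The share of insulin would be 48.0% in place of 49.4%.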

How the data were processed

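The strand setting, the annotation release and the handling of reads with several matches are not stated in the labels or files. The submitters' processing notes name TopHat2, Cufflinks, DESeq and the build mm10, with no role or order. Per sample, the authors deposited a read count and an FPKM value per Ensembl gene. The deposited FPKM equal the deposited counts divided by a gene length and by the library's total count. Of 54532 listed genes, 54409 were found in GENCODE M21, 21918 of them protein-coding.

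Means, SDs, CVs, ranks, list medians and library ratios were computed from the deposited FPKM with Python 3.11.15, numpy 2.4.6 and pandas 2.3.3, without a test, and the computation of spread was tested on simulated data. The counting CV is that of a Poisson count. Gene lists, members and alternatives were chosen with earlier results of these data known. Genes named are all hormones, the 20 highest, up to 8 of highest mean and, for factors, channels and receptors, 4 under 1 FPKM per list, and the 15 widest and 10 narrowest genes. Outside this rule, and chosen after their values were seen, are Pdx1, Neurod1, Gipr, Cish, Hk2, Slc16a1, Rest, Nnt, Ucp1, Cpt1b, Gast, Cck, Tac1, Gip, Crh, Rims1, Prss1, Try4, Rpl24, Rpl36, Rps3a1, the lymph node genes, the lowest 5 mitochondrial mRNAs, the kidney genes and the antibody segments. The other 9 libraries served only for their spread. Some members of the lists are not reported here.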

Additional observations from a re-analysis of the deposited data

How the results depend on the processing

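No paired analysis was possible because no groups are compared. Of the summary values, the share of insulin was 29.2% by read counts in place of 49.4%. The 10 highest genes held 20.9% of the sum once Ins1 and Ins2 were left out. Genes over 2-fold numbered 659 at a mean of at least 5 FPKM, and between 560 and 1416 with 1 library left out, in place of 1618. Lists with a median of at least 10 FPKM fell from 35 to 22 with lengths of joined exons. The number of genes at 1 FPKM ranged from 11322 to 13459 over its alternatives and the median CV from 9.57% to 18.4%, each within 1.5 times the value given. Of 806 named or listed genes, 647 moved over 1.5-fold with lengths of joined exons, 36 without WT 1, 6 without WT 2, 1 without WT 3, and 0 as TPM or scaled to the counts outside insulin. The lengths of joined exons for the insulin share and the hormone order, the sums per library and the scaling of list counts were chosen after seeing the data. With n = 3, every SD is itself imprecise.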
